A study of Mus musculus with 5 samples.

Results

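The Trim genes encode tripartite-motif proteins, most of which are ubiquitin ligases. The family was defined here as every gene whose probe sets carry 1 annotated symbol made of Trim, a number and, for paralogous copies such as Trim30a, a letter. The arrays measured 58 such genes among 18193 genes in all, 52 of them with no letter and 6 with one, on 111 probe sets. For each gene the probe set with the highest mean of log2(intensity + 16) stood for it. A gene was tested where its highest intensity reached 25.1, the median of all values. Of the 58 genes, 38 passed that filter and 20 did not. Just inside it were Trim43a and Trim9, whose highest intensities were 25.7 and 26, and just outside it were Trim10 at 24.0 and Trim35 at 20.9.

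RNA came from the mouse mammary cancer line NT2.5, which was derived from neu-transgenic animals, and from its sub-lines that prefer 1 site of metastasis. The groups were the parental cells (labelled wild type, whose label lists bone, liver and lung as preferred sites), a bone sub-line at passages 3 and 6, and a liver sub-line at passages 1 and 3. All carry the NT2.5 background, and each of these 5 samples was hybridised to 1 Affymetrix mouse expression array. Each sub-line is 1 lineage, so its passages stood in for replicates. A p-value here reflects the spread between such samples alone, and that spread may be technical.

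A tripartite-motif protein typically carries a RING finger, which recruits the ubiquitin-loaded conjugating enzyme, then B-boxes and a coiled coil through which the proteins pair. A variable end of the protein, often a PRY-SPRY domain, binds the target. The family is known for its part in innate immunity: several members are induced by interferon, and some act on the RNA sensors RIG-I and MDA5 or on their signalling. Others are transcription cofactors, microtubule-binding proteins or muscle ligases.

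The 5 arrays had median intensities from 21.9 to 26.4, with bone passage 6 lowest. Centring every array on its median of log2 values would raise bone passage 6 by 0.11 on the log2 scale and shift the others by -0.048 to 0.014. The epithelial markers Epcam, Krt8 and Krt18 were bright on every array (Epcam from 3761 to 4384). Of the 8 markers on that list 7 passed the filter, and Krt19 did not, with 3.3 at most. All 4 Kupffer cell markers and 6 of 7 hepatocyte markers, Alb among them, lay below the filter. Of 14 macrophage markers on the arrays 11 passed the filter, and the summed intensity of all 14 was 261 in parental cells, 363 and 310 in bone passages 3 and 6, and 863 and 571 in liver passages 1 and 3. Of these markers, C1qa, C1qb and C1qc reached the filter level in liver passage 1 alone. Not every marker followed the sum: Fcgr1 had 32.3 in parental cells and 20.3 and 22.7 in liver passages 1 and 3. The part of macrophages in the Trim values below was not tested. In bulk samples, fewer cells of a type and less RNA per cell cannot be told apart.

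Most Trim genes differed little between the 5 arrays. The largest fold between any 2 arrays had a median of 1.46 over the 38 tested Trim genes and of 1.5 over all 12609 tested genes. At least 2-fold apart in some pair were 7 Trim genes, or 18.4% of those tested, where 17.2% of all genes were. These were Trim47, Trim30a, Trim56, Trim16, Trim14, Trim60 and Trim43a. Pair by pair the counts were small. Against parental cells, 3 Trim genes were 2-fold apart in bone passage 3 (4.36% of all genes were), 2 in bone passage 6 (4.64%), 2 in liver passage 1 (4.53%) and 1 in liver passage 3 (3.89%). Bone passage 3 differed 2-fold from liver passage 1 in 3 Trim genes (5.75% of all genes) and from liver passage 3 in 3 (4.59%). For bone passage 6 the counts were 3 against liver passage 1 (7.07%) and 2 against liver passage 3 (4.64%). Between the passages of a sub-line 1 gene differed, Trim60 in bone (2.43%) and Trim43a in liver (2.81%). The Trim gene with the smallest difference was Trim3, an NHL-repeat ligase, with a largest fold of 1.14. The median log2 difference over the Trim genes was -0.018 for bone against parental, 0.036 for liver against parental and 0.012 for bone against liver. Over all genes it was -0.019, 0.014 and -0.023.

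**Figure D1:**
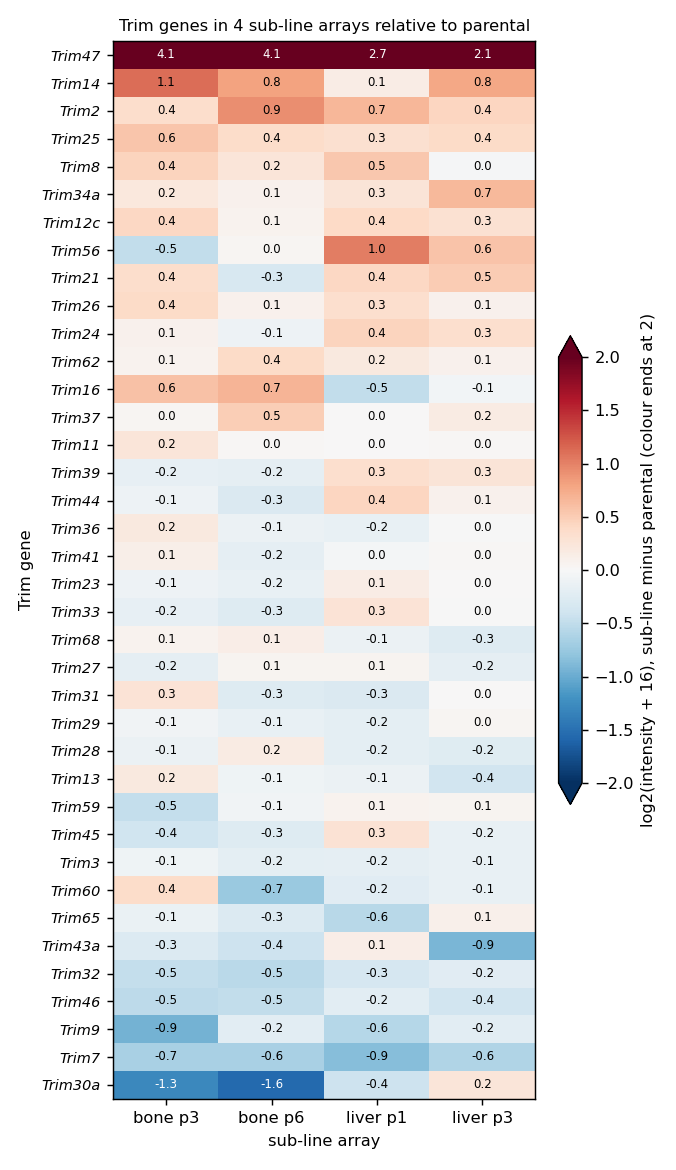
Log2(intensity + 16) of the 38 tested Trim genes (rows) on each sub-line array (columns) minus the parental array, in log2 units, with the value printed in each cell and p3 standing for passage 3. Trim47 stood 4.1 above parental on both bone arrays, and Trim30a was the gene with the lowest bone values.

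Trim47, a RING and PRY-SPRY ligase first described as overexpressed in astrocytoma, was the Trim gene that changed most. Its intensity was 8.5 in parental cells, 413 and 401 in bone passages 3 and 6, and 143 and 85.9 in liver passages 1 and 3. All 4 sub-line arrays lay above the parental array, and both bone arrays lay above both liver arrays. In bone-preferring cells Trim47 was 17.2-fold above parental cells (log2 difference 4.11 ± 0.31, SE, n = 2 passages and 1 parental array; limma adjusted p = 0.0220). It was the 1 Trim gene among the 38 called as higher in that comparison, where 0.0714% of all genes tested were called so and 0.135% in either direction. At an unadjusted p under 0.05 were 4 of the 38 (10.5%; Trim7, Trim14, Trim30a and Trim47), beside 8.17% of all genes. The parental intensity was below the filter level, so the size of the fold depends on the pseudocount of 16. With a pseudocount of 1 the log2 difference was 5.42, and the limma adjusted p was 0.0622. With no filter, which brings 18193 genes into the adjustment, it was 0.154.

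In the liver sub-line Trim47 was 5.2-fold above parental cells (2.38 ± 0.31, n = 2 passages and 1 parental array), which did not pass (limma adjusted p = 0.161). Bone against liver, the difference was 1.73 ± 0.25, or 3.32-fold (n = 2 passages each), and it did not pass either (limma adjusted p = 0.0842). That difference passed when passage stage entered as a block (4 sub-line arrays; limma adjusted p = 0.0225). The block set bone passage 3 with liver passage 1, and bone passage 6 with liver passage 3. It also passed with each array centred on its median (0.0206), centred over the tested genes (0.0468), or with a mean-variance trend in eBayes (0.0459). Liver against parental passed with centring on the array median (limma adjusted p = 0.0254). It also passed without bone passage 3 or without bone passage 6 (0.0488 each, from the same liver and parental arrays). In all 4 bone-liver pairs of arrays Trim47 was at least 2-fold higher in bone, from 2.62-fold to 4.21-fold. It was the 1 Trim gene of 38 to be so, and 0.444% of all genes were. At passage 3, the number both sub-lines share, bone exceeded liver 4.21-fold. Between the bone passages its intensity differed 1.03-fold, and between liver passages 1 and 3 it was 1.56-fold lower at passage 3.

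**Figure D2:**
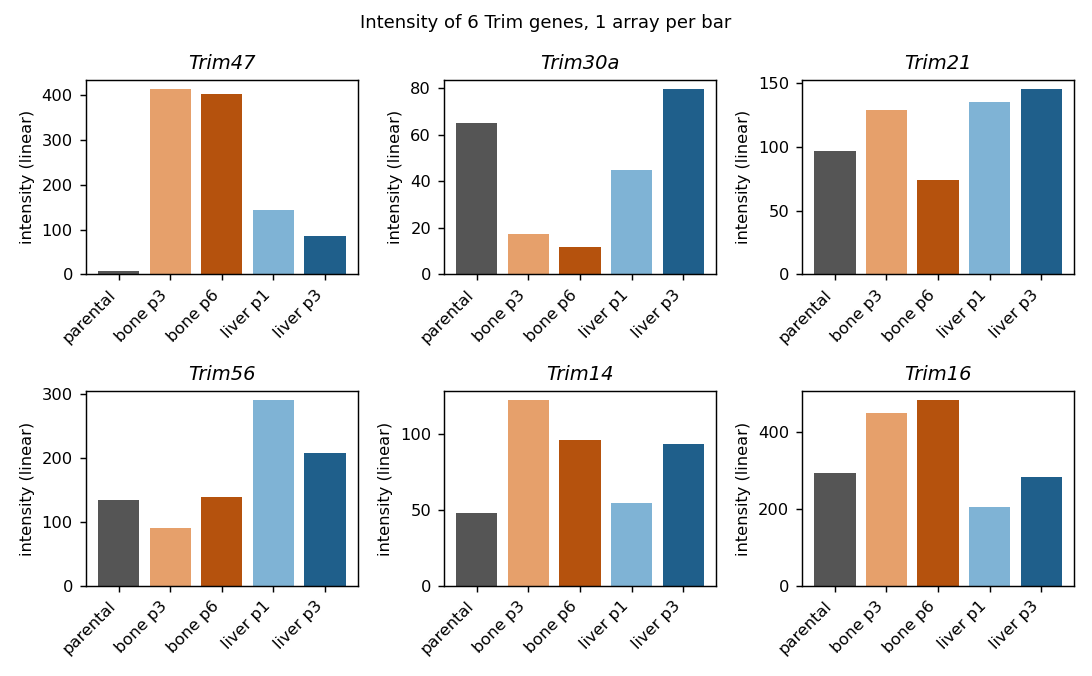
Intensity on the linear scale (y axis) of 6 Trim genes on the 5 arrays, 1 bar per array, with axes that start at 0. Trim47 was at 8.5 in parental cells and above 85 on every sub-line array, while Trim30a was lowest on both bone arrays.

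Trim47 has 1 probe set, so no second probe set checks these values. Its promoter window in the RefSeq table of build GRCm38.p6, from 250 bases before to 50 after the start at chr11:116110186-116110485 on the minus strand, is shown because Trim47 was the member with the largest difference. CpG dinucleotides are in capitals:
Trim47: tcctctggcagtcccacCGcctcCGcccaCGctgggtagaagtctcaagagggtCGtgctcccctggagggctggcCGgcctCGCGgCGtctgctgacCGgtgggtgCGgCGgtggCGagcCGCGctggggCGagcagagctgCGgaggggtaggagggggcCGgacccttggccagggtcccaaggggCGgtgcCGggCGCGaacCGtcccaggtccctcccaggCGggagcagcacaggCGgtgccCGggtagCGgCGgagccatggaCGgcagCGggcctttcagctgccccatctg
The window has 29 CpG dinucleotides, more than 87.1% of all 32851 windows (median 7), and a G and C content of 74.3%. It holds neither of the interferon motifs described below. No methylation or binding was measured in these samples.

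None of the tested genes that flank Trim47 on chromosome 11 passed the test. Trim65, a ligase for the RNA sensor MDA5 that lies next to it in the annotation, had 67.5 in parental cells, 60.3 and 53.3 in bone and 40.7 and 73.2 in liver. Its bone against parental difference was -0.20 ± 0.32 (limma adjusted p = 0.940). On the other side Wbp2, a WW-domain binding coactivator, had 335 in parental cells, 607 and 589 in bone and 473 and 677 in liver (0.81 ± 0.28 for bone against parental; limma adjusted p = 0.491). The 7 tested neighbours, 4 before and 3 after Trim47, had differences from -0.45 to 0.81 for bone and from -0.58 to 0.73 for liver. Of these 0 passed. Over all genes 0.135% passed for bone against parental, 0.0159% for liver against parental and 0.19% for bone against liver. A count of 0 among 7 is near those shares.

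**Figure D3:**
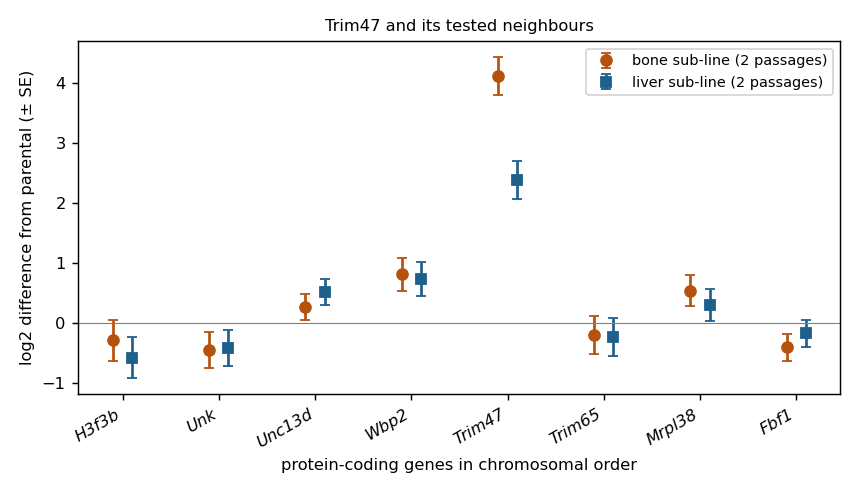
Log2 difference from parental cells (y axis, points with SE from limma) of Trim47 and its tested protein-coding neighbours in chromosomal order (x axis), for the bone and the liver sub-line (2 passages each). Trim47 stood at 4.11 and 2.38, and its neighbours lay between -0.58 and 0.81.

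Of the Trim genes linked to interferon, 12 were on the arrays and 8 were tested: Trim12c, Trim14, Trim21, Trim25, Trim26, Trim30a, Trim34a and Trim56. Limma called 0 of the 8 in the 3 comparisons, and at an unadjusted p under 0.05 were Trim14 and Trim30a for bone against parental, Trim56 for liver against parental, and Trim30a and Trim56 for bone against liver. Over all genes 0.135%, 0.0159% and 0.19% were called in these comparisons, and 8.17%, 7.49% and 14.1% were at an unadjusted p under 0.05. Their median difference was 0.19 for bone and 0.41 for liver against parental cells.

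Trim30a is an interferon-induced mouse gene whose product restrains Toll-like receptor signalling to NF-kB. Its intensity was 65.0 in parental cells, 17.2 and 11.6 in bone passages 3 and 6, and 44.9 and 79.5 in liver passages 1 and 3. Both bone arrays were below all other arrays, and liver passage 3 was the highest. The bone sub-line was 2.68-fold lower than parental cells (-1.42 ± 0.32; limma adjusted p = 0.281) and 2.52-fold lower than the liver sub-line (-1.33 ± 0.26; limma adjusted p = 0.134), and neither passed. In the alternatives tried, bone against liver ranged from -2.01 to -0.67, with limma adjusted p from 0.0555 to 0.289. Between liver passage 3 and bone passage 6 the gene was 3.46-fold apart. A second probe set gave 46.4, 14.2, 7.3, 28.6 and 92.4 in the order parental, bone passages 3 and 6, liver passages 1 and 3, and thus the same highest and lowest arrays. Another, annotated to both Trim30d and Trim30a and outside the family rule, gave 19.8, 19.0, 8.3, 19.6 and 48.6. Trim30a has close copies next to it on chromosome 7, and how far its probe sets read them was not tested.

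Trim21, the cytosolic antibody receptor, had 97.1 in parental cells, 129 and 74.1 in bone passages 3 and 6, and 135 and 145 in liver passages 1 and 3. Liver passage 3 was highest and bone passage 6 lowest, 1.79-fold apart, and bone passage 3 was above the parental array. Bone against liver differed by -0.45 ± 0.26 (limma adjusted p = 0.490). The second probe set of Trim21 also had its highest value in liver passage 3 (135) and its lowest in bone passage 6 (71.5).

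These were the 2 tested Trim genes that followed the interferon pattern, meaning the highest of the 5 values in liver passage 3 and the lowest in bone passage 6. That is 5.26% of the 38, beside 7.15% of all genes tested. With a further demand of at least 2-fold between these arrays, Trim30a alone was left, where 1.78% of all genes were. Both kept the pattern under median centring over all probe sets or tested genes, quantile normalization, pseudocounts of 1 and 64 and the mean of all probe sets, though with a pseudocount of 64 Trim30a was under 2-fold. Neither was 0.5 log2 units above parental cells in liver passage 3 and as far below them in bone passage 6. The opposite order, with bone passage 6 highest and liver passage 3 lowest, was seen for Trim27, Trim28 and Trim68, of which Trim27 lost it with quantile normalization and with the mean of all probe sets. On a second probe set of Trim28 liver passage 1 (991) was lowest and not liver passage 3 (1023). The share of all genes with the opposite order was not counted, so this is a description alone.

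The pattern was taken from interferon response genes on these same arrays, so its count among them is given as a description and is no independent evidence. In a list of such genes that excludes the Trim family, 20 of 34 tested members had it (58.8%), and liver passage 3 exceeded bone passage 6 in 34 of 34, with a median log2 difference of 1.48 against 0.054 for all genes. Ifit1, an inhibitor of viral translation, had 57.1 in parental cells, 207 and 17.6 in bone passages 3 and 6, and 162 and 335 in liver passages 1 and 3. Usp18, the protease that removes ISG15, had 125, 387, 32.3, 290 and 405 in the same order. Oasl2 and Rtp4 differed by 3.17 and 3.15 on the log2 scale between liver passage 3 and bone passage 6. For bone against parental, liver against parental and bone against liver limma called 0 of the 34, beside 0.135%, 0.0159% and 0.19% of all genes. At an unadjusted p under 0.05 were 1, 8 and 3 of the 34, beside 8.17%, 7.49% and 14.1% of all genes. Over the 38 Trim genes the median liver passage 3 minus bone passage 6 difference was 0.11, with 24 of 38 above 0 (63.2%, beside 55.6% of all genes). After quantile normalization it was -0.016, with 19 of 38 above 0 (50%, beside 49.2%).

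**Figure D4:**
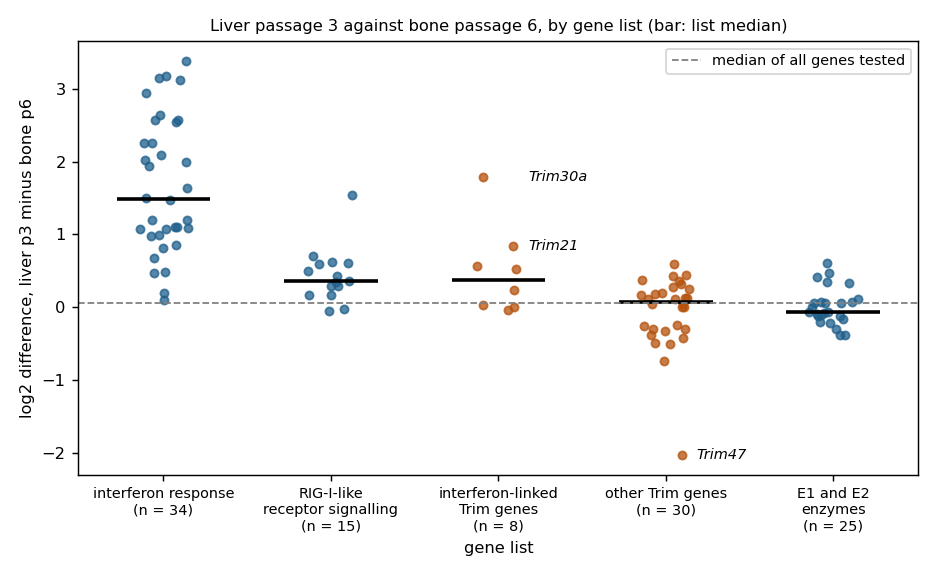
Log2 difference between liver passage 3 and bone passage 6 (y axis, 1 array each) for each tested gene of 5 lists (x axis), with a bar at each list's median and a dashed line at the median of all genes. The interferon response genes had a median of 1.48, and Trim30a at 1.79 was the Trim gene nearest to it while Trim47 lay at -2.03.

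Trim21 and Trim30a parted at bone passage 3. There the interferon response genes were above parental cells in 33 of 34 cases, with a median of 0.78, and 0 of 34 were 2-fold below. Of all 12609 genes 50.5% were above parental cells there, and 243 were 2-fold below. Trim21 was 0.36 above parental cells on that array, whereas Trim30a was 1.29 below. At bone passage 6 the list had a median of -0.32, Trim21 was at -0.33 and Trim30a at -1.55. All of these differences share the 1 parental array.

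**Figure D5:**
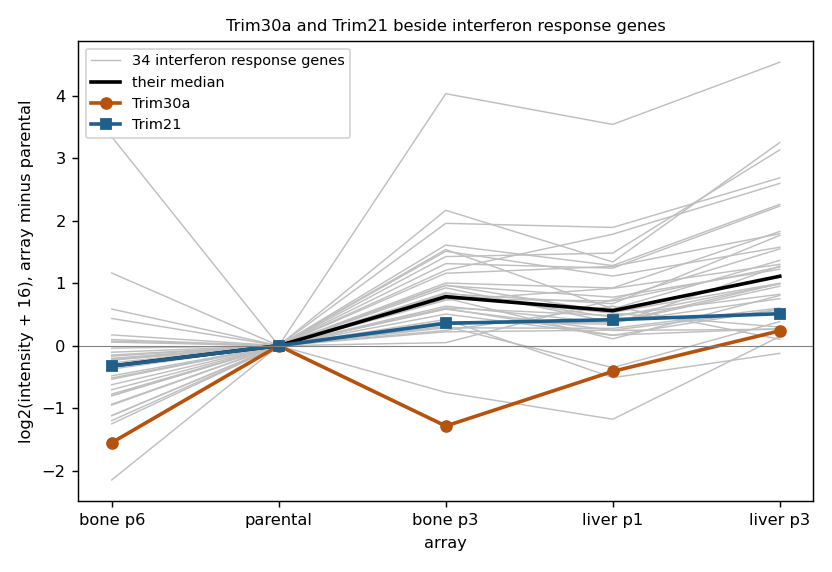
Log2(intensity + 16) of each array minus the parental array (y axis) for 34 interferon response genes (grey lines, black line for their median), Trim30a and Trim21, with the arrays placed in an order chosen for display (x axis). At bone passage 3 the list median and Trim21 lay above parental cells and Trim30a lay 1.29 below.

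To see whether these members share sequence near their start sites, the RefSeq promoter windows were searched for the letters of the interferon-stimulated response element, on both strands. These are GAAA, any 2 bases and GAAA again, or TTTC, any 2 bases and TTTC on the opposite strand, to which interferon regulatory factors and STAT complexes bind. Windows were found for 47 of the 58 Trim genes. A match was present in 9 of the 47 genes (19.1%), namely Trim2, Trim5, Trim12a, Trim12c, Trim21, Trim26, Trim30a, Trim30d and Trim34a, and in 3.99% of all 27025 genes with a window. Of the interferon response genes with a window, 12 of 29 had a match (41.4%). The matching sites of the genes on chromosome 7 are shown, on the strand of each gene in build GRCm38.p6, since they hold both Trim genes with the interferon pattern. The motif is in capitals, with 10 bases on each side:
Trim21 (chr7:102565450-102565479, minus strand): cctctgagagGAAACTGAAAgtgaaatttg
Trim34a (chr7:104244457-104244486, plus strand): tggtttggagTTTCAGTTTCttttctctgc
Trim5 (chr7:104288136-104288165, minus strand): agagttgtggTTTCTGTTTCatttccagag
Trim12a (chr7:104315466-104315495, minus strand): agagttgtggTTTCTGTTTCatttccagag
Trim12c (chr7:104353359-104353388, minus strand): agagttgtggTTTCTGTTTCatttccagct
Trim30a (chr7:104465210-104465239, minus strand): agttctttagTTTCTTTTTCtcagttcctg
Trim30d (chr7:104507871-104507900, minus strand): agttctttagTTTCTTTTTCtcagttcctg
Trim5, Trim12a and Trim12c had the same 10 letters, as did Trim30a and Trim30d. The sites of Trim30a and Trim12c began 36 and 29 bases before the annotated start, and those of Trim21 and Trim34a 13 and 10 bases after it.

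The matches of Trim21, which overlap each other, begin 13 and 19 bases after the start. Trim30a had a larger difference between liver passage 3 and bone passage 6 than Trim21, the other tested member with the interferon pattern. For these reasons the whole windows of both genes are shown. They lie at chr7:102565433-102565732 and chr7:104465144-104465443, on the minus strand, with every base of a match in capitals:
Trim21: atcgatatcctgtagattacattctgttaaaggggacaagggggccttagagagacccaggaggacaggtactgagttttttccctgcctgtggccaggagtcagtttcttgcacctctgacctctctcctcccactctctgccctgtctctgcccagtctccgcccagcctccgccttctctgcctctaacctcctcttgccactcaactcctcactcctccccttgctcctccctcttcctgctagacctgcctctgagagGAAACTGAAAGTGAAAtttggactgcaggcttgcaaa
Trim30a: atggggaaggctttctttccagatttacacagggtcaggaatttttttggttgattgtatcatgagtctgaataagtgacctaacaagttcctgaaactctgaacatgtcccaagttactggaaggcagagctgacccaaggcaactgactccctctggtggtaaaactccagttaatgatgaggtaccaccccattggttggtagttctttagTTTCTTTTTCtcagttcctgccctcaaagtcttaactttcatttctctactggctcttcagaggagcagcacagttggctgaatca
These windows have 3 and 0 CpG dinucleotides, against 29 for Trim47. Trim30a has a second annotated start, whose window also holds 1 match. The gamma-activated site, TTC, any 3 bases and GAA, which reads the same on both strands, was in the windows of 4 of the 47 Trim genes (Trim15, Trim31, Trim45 and Trim46; 8.51%) and of 9.55% of all genes, and it overlapped no match of the other motif. A match is a description of the letters and not a measured binding site.

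Holding the motif did not go with the interferon pattern in every member. Of the 6 tested Trim genes with a match, Trim21 and Trim30a had the pattern and Trim2, Trim12c, Trim26 and Trim34a did not. Trim34a is a close relative of the Trim30 genes. It had 12.5 in parental cells, 16.9 and 14.4 in bone passages 3 and 6, and 18.2 and 28.8 in liver passages 1 and 3. Liver passage 3 was highest and alone reached the filter level, and the parental array was lowest. A second probe set, below the filter, gave 7.9, 14, 14, 14.5 and 13.9 in the same order. A brighter one, annotated to both Trim34b and Trim34a and outside the family rule, gave 33.1, 44.1, 22.6, 21.8 and 35.9. There bone passage 3 was highest and liver passage 1 lowest. Another with both annotations gave 14.1, 17.0, 6.2, 14.1 and 11.0, with bone passage 3 again highest. Trim12c had 49.8, 71.9, 53.2, 70.6 and 65.4 in the same order of arrays, and its largest fold was 1.34. Trim26, a gene of the major histocompatibility region, had 170, 225, 180, 218 and 180, a largest fold of 1.30. Trim6, Trim5, Trim12a and Trim30d, the other interferon-linked members, lay below the filter with highest intensities of 16.3, 6.9, 7.2 and 5.4.

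Trim56, an antiviral RING ligase, had its highest values in the liver sub-line. It had 135 in parental cells, 91.3 and 140 in bone passages 3 and 6, and 291 and 209 in liver passages 1 and 3, so the bone and liver arrays did not overlap. The bone against liver difference was -1.02 ± 0.26, or 2.03-fold (n = 2 passages each; limma adjusted p = 0.200), and liver against parental was 0.79 ± 0.32 (limma adjusted p = 0.659). Neither passed. Its order was not that of the interferon list, because liver passage 1 was highest and bone passage 3 lowest, 2.86-fold apart.

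Trim14 lacks a RING finger and serves as an adaptor in signalling from RNA sensors at mitochondria. Its intensity was 48.1 in parental cells, 122 and 96.4 in bone passages 3 and 6, and 54.7 and 93.4 in liver passages 1 and 3. All 4 sub-line arrays were above the parental array, by 1.10-fold in liver passage 1 and 2.16-fold in bone passage 3. The bone against parental difference was 0.96 ± 0.32 and did not pass (limma adjusted p = 0.483). Trim25, the ligase known for its action on RIG-I, had 508, 752, 658, 641 and 669 in the same order, again with the parental array lowest. Its bone against parental difference was 0.46 ± 0.22 (limma adjusted p = 0.679), and its other 2 probe sets above the filter gave at least 0.35. On 1 of these liver passage 1 (147) was below the parental array (155).

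In the RIG-I-like receptor pathway, in which Trim14 and Trim25 take part, limma called 0 of 15 tested members in the 3 comparisons. Over all genes 0.135%, 0.0159% and 0.19% were called. At an unadjusted p under 0.05 were 2, 1 and 2 of the 15, beside 8.17%, 7.49% and 14.1% of all genes. Liver passage 3 exceeded bone passage 6 in 13 of 15, with a median of 0.36, where it did so in 55.6% of all genes. Ifih1, which encodes MDA5, had 167 in parental cells, 267 and 111 in bone, and 310 and 354 in liver, with the interferon pattern. Ikbkg was the other member with that pattern under the deposited scaling, and Nlrx1 and Mavs were 0.71 and 0.62 higher in liver passage 3 than in bone passage 6. Among 25 tested enzymes that activate ubiquitin or carry it to ubiquitin ligases (Uba6 and 24 of the Ube2 family), 0 were called. At an unadjusted p under 0.05 were 0, 0 and 2 of them, beside the same shares of all genes. Between liver passage 3 and bone passage 6, 0 of the 25 were 2-fold apart, beside 4.64% of all genes. The largest differences in that pair were 0.61 for Ube2a, 0.47 for Ube2e2, 0.42 for Uba6 and -0.39 for Ube2h.

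Trim16, which also lacks a RING finger and takes part in the response to damaged lysosomes, had its highest values in the bone sub-line. Its intensity was 295 in parental cells, 451 and 483 in bone passages 3 and 6, and 205 and 283 in liver passages 1 and 3. Both bone arrays were above the parental array and both liver arrays below it. Bone against liver was 0.91 ± 0.22, or 1.88-fold (n = 2 passages each; limma adjusted p = 0.175), and the second probe set gave 0.34. On that probe set liver passage 3, at 67.5, was above the parental array, at 60.6. The largest fold of Trim16 was 2.26 on the first probe set. Those of the other members without a RING finger were 2.16 for Trim14, 1.65 for Trim44 and 1.17 for Trim29.

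Trim60 and Trim43a were 2-fold apart in 1 pair of arrays each and were dim throughout. Trim60 had 26.1 in parental cells, 38.3 and 9.2 in bone passages 3 and 6, and 19.8 and 22.1 in liver. Trim43a had 22, 15.3 and 12.6, then 25.7 and 4.1 in liver passages 1 and 3. In each the 2 passages of 1 sub-line were the arrays furthest apart, by 2.16-fold for Trim60 and 2.07-fold for Trim43a.

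On the probe sets that stand for them, the transcription cofactors of the TIF1 group differed by less than 1.5-fold between any 2 arrays. Trim28, the corepressor that KRAB zinc-finger proteins recruit, had 1762 in parental cells, 1621 and 1986 in bone, and 1532 and 1482 in liver. Trim24, which binds nuclear receptors and modified histones, had 213, 229, 198, 295 and 272 in the same order, so that both liver arrays were above the others. On its second probe set above the filter liver passage 1 (67.6) was below the parental array (76.3). Trim33, a regulator of SMAD4, had 514, 459, 427, 626 and 509. Their largest folds were 1.34, 1.46 and 1.45. Limma called 0 of the 3 in any comparison, beside 0.0159% to 0.19% of all genes. At an unadjusted p under 0.05 were 0 of the 3, beside 7.49% to 14.1% of all genes. A second probe set of Trim33 ran lower in bone, with 200 in parental cells, 133 and 116 in bone and 211 and 157 in liver, and a bone against parental difference of -0.63 (-0.21 on the first). The fourth, Trim66, lay below the filter.

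Among the remaining members 0 were called in any comparison, beside 0.0159% to 0.19% of all genes, and few stood out. Of the NHL-repeat ligases, Trim2, which acts on neurofilament light chain, had 137 in parental cells, 180 and 275 in bone and 226 and 191 in liver. All of its 5 probe sets above the filter were on average higher in both sub-lines than in parental cells, by 0.070 to 0.78 for bone, but the difference of 0.64 ± 0.30 did not pass (limma adjusted p = 0.665). Trim7, known as a glycogenin-interacting protein, was lower in all sub-line arrays, with 97.7 in parental cells, 56.4 and 56.7 in bone and 47.0 and 58.8 in liver. It differed by -0.65 ± 0.23 for bone and -0.73 ± 0.23 for liver and did not pass (limma adjusted p = 0.515 and 0.544). Trim46, which organises microtubules at the axon, and Trim32, a ligase linked to muscular dystrophy, were lower on all sub-line arrays as well. Trim46 had 586 in parental cells and 401 to 506 in the sub-lines, and Trim32 had 317 and 213 to 270. The muscle members Trim54, Trim63 and Trim72 were below the filter, at no more than 7.1.

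Across the family 10 of 38 genes (26.3%) were higher than the parental array on all 4 sub-line arrays, against 17.6% of all genes, and 5 (13.2%) were lower on all 4, against 18.1%. These counts rest on the 1 parental array. The bone and liver arrays did not overlap for 19 of 38 Trim genes (50%), against 47.1% of all genes. In bone 6 of the 38 were higher (15.8%, against 21.2% of all genes) and 13 lower (34.2%, against 25.9%). The share in either direction was near that of all genes, and whether the shares by direction differ from those of all genes was not tested. Limma called 0 Trim genes for liver against parental (3 at an unadjusted p under 0.05, 7.89% of them, namely Trim7, Trim47 and Trim56), where 0.0159% of all genes were called and 7.49% were at an unadjusted p under 0.05. For bone against liver it also called 0, where 0.19% of all genes were. There 5 were at an unadjusted p under 0.05 (13.2%, beside 14.1% of all genes), namely Trim16, Trim30a, Trim39, Trim47 and Trim56.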

How the data were processed

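Purified total RNA was converted to biotin-labelled cRNA, per the labels' protocols. The authors deposited 1 intensity per probe set for 45101 probe sets on a linear scale. The submitters' processing notes name RMA, with no version, but the values do not have its log2 scale. With 2% of values trimmed at either end, each array had a mean of 150. Other steps are not given in the sources used here.

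Gene names came from the platform annotation. Probe sets with several genes, no gene or control sequence were left out. Symbols were checked against RefSeq GRCm38.p6 by gene identifier (34741 probe sets matched), and 0 changed. Values were used as log2(intensity + 16) without another normalization, so folds of dim genes are understated. The filter and choice of probe set left 12609 genes, tested with limma 3.58.1 in R 4.3.3 (lmFit, eBayes, 3 groups, 2 residual degrees of freedom). Benjamini-Hochberg adjustment ran over all of them, with calls at an adjusted p under 0.05. The limma fit was tested on simulated data. A pair of single arrays has no replicate check. The number of arrays limits the precision.

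Named with values were Trim genes called by limma, 2-fold apart in any pair, or with the interferon pattern, and the interferon-linked and TIF1 groups, plus up to 4 genes per context list. Trim2, Trim3, Trim7, Trim32, Trim39, Trim46, Trim65, Wbp2 and the members named just for an extreme or an order were chosen after their values were seen. The members and lists were chosen with earlier results of these data known.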

Additional observations from a re-analysis of the deposited data

Results flagged for a closer look

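In Trim16 both bone arrays lay above the parental array and both liver arrays below it, on the probe set that stands for the gene. On its second probe set liver passage 3 (67.5) was above the parental array (60.6), so the order did not hold there. On the first probe set the bone against liver difference was 0.91 on the log2 scale, and the test of that difference did not pass (limma adjusted p = 0.175). It ranged from 0.63 to 1.13 over the alternatives. The order rests on 1 parental array, and on the first probe set liver passage 3 was 1.04-fold below it.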

How the results depend on the processing

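The 11 differences followed for Trim14, Trim16, Trim30a, Trim47 and Trim56 kept their sign in all alternatives. The count of Trim genes called for bone against parental went from 1 to 0 with no filter and with a pseudocount of 1, and was 1 without any 1 sub-line array. For liver against parental it went from 0 to 1 with median centring, and was 0 to 1 with a sub-line array left out. For bone against liver it went from 0 to 1 with median centring over all probe sets or over tested genes and with an eBayes trend. The same held with passage stage as a replicate block. In each of these the gene was Trim47. Centring over tested genes was chosen after seeing the data. The block set bone passage 3 with liver passage 1 and bone passage 6 with liver passage 3, and not the passages of equal number. Calls over all genes for bone against liver rose in the same settings, from 24 to 130, 61, 52 and 161 in that order, and for liver against parental from 2 to 30 with median centring and 38 without either bone array. With no filter or a pseudocount of 1, calls over all genes for bone against parental went from 17 to 1. The count of 7 Trim genes 2-fold apart in some pair was 10 with a pseudocount of 1 and 3 with a pseudocount of 64. It was 6 with quantile normalization, 5 with a filter on the mean, 4 with the mean of all probe sets and 2 at 3-fold. The count of 1 in every bone-liver pair was 2 with a pseudocount of 1 (Trim30a and Trim47), 0 at 3-fold, and 2 with any 1 array left out. The second gene was Trim30a without bone passage 3 or liver passage 1, Trim56 without bone passage 6 and Trim16 without liver passage 3. The count of 2 with the interferon pattern was 5 with no filter, which adds the dim Trim10, Trim15 and Trim67, and 0 with the 0.5 margins around parental. The RIG-I-like receptor count of 2 was 1 with median centring or quantile normalization.

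The Trim median for bone against parental (-0.018) turned to 0.053 with median centring and 0.021 with centring over tested genes. It ran from -0.11 without bone passage 3 to 0.053 without bone passage 6, so its sign rests on 1 array. The Trim median for liver against parental (0.036) was -0.0026 with no filter, 0.075 with a filter on the mean, -0.068 with the mean of all probe sets and 0.00065 with centring over tested genes. For bone against liver (0.012) it was 0.085 with that centring, and -0.053 to 0.038 with an array left out. The cause of these moves was not tested. With 5 arrays and no repeat of any passage, small differences were not detectable.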

Other observations

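Relatives of the Trim family under other symbols were measured as well. Pml, the scaffold of PML nuclear bodies and an interferon-induced member, had 190 in parental cells, 103 and 115 in bone passages 3 and 6, and 131 and 229 in liver passages 1 and 3. As with Trim30a, both bone arrays were the lowest and liver passage 3 was the highest, but bone passage 3 and not 6 was at the bottom. Mid1, a microtubule-associated ligase, had 28.8, 27.9, 15.5, 28.1 and 32.7 in that order and followed the interferon pattern. Its relative Mid2 had 128, 72.6, 52.2, 182 and 104. Bspry, a B-box and SPRY protein, was lower in liver, with 390 in parental cells, 364 and 432 in bone and 260 and 246 in liver. For bone against parental, liver against parental and bone against liver limma called 0 of the 6 tested relatives. Over all genes it called 0.135%, 0.0159% and 0.19%. At an unadjusted p under 0.05 were 1, 1 and 2 relatives, beside 8.17%, 7.49% and 14.1% of all genes.

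Probe sets of 1 gene did not always move together. Of 17 tested Trim genes with several probe sets above the filter, 11 had the same sign on all of them for bone against parental, 8 for liver against parental and 12 for bone against liver. For Trim27, a ligase first found as a fusion partner of RET, the liver passage 3 minus bone passage 6 difference ran from -1.31 to 0.27 over 4 probe sets. For Trim62 the liver against parental difference ran from -1.07 to 0.33 over 3.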
